A study of Mus musculus with 7 samples.

Results

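The interferon regulatory factor (Irf) genes described here are Irf1, Irf2, Irf3, Irf4, Irf5, Irf7, Irf8 and Irf9. They were found by gene symbol, as 8 of the 25469 genes with a count in at least 1 library, and all 8 passed the filter on low counts with 13904 genes in all. These 8 do not make up the whole family, and counts of members refer to these genes. Splenic CD4+CD25+ cells of wild-type mice, the fraction that holds most regulatory T cells (Tregs), were profiled by RNA-sequencing in 3 aged libraries (18-month mice) and 4 young libraries (8-week mice by the labels, while the study's methods give the young mice as 10-week), to ask how Tregs differ with age. Per the study's methods, the mice were male C57BL/6; a regulatory T cell isolation kit is named for the Tregs of its transfusion experiment, and how the sequenced cells were isolated is not stated there. The libraries are labelled as biological replicates, whether each held 1 mouse or a pool is not stated in the labels, and cDNA was made with SMART-Seq v4, a kit for small amounts of RNA.

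IRFs are transcription factors that share a DNA-binding domain for sequences with GAAA repeats. IRF3, IRF5 and IRF7 are switched on by phosphorylation below nucleic acid sensors and drive interferon and cytokine genes, IRF9 is the DNA-binding subunit of the complex ISGF3 below the interferon receptors, IRF1 is induced by interferon-γ, and IRF2 binds many of the same sites and often opposes IRF1. IRF4 and IRF8 bind weakly alone and act with partners such as BATF-JUN or PU.1; IRF4 is induced by the T cell receptor and is needed for effector Tregs, while IRF8 is known mainly from B cells, dendritic cells and monocytes.

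Gene counts per library were 10734234 to 13649310, and 3 counts equalled 0.22 to 0.279 CPM by library size alone. All other CPM values are gene counts scaled to library size with TMM factors. The Treg genes Foxp3 (394 to 622 CPM), Il2ra (327 to 684 CPM) and Cd4 (434 to 633 CPM) were read in every library. B cell markers were read as well, with a sum over 10 genes of 1107 to 2490 CPM, and so were neutrophil markers, with 5408 CPM in aged replicate 1 and 274 to 1950 CPM in the other 6 libraries. Haemoglobin transcripts took 1.24% to 13.1% of the counts, and mitochondrial transcripts at least 5.08% in aged and at most 3.23% in young libraries. Of 13904 genes tested with edgeR's quasi-likelihood test, 2327 passed a Benjamini-Hochberg adjusted p of 0.05, with 1362 rises and 965 falls at the older age. The median log2 fold change of all genes tested was 0.02.

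With age, Irf1 rose and the call was made for none of the other 7 members. At the adjusted p of 0.05, 1 of 8 Irf genes was called, where 16.7% of all genes were, so the number of calls in the family was close to that of genes in general. The 1 call was a rise (9.8% of all genes rose), and no Irf gene was called lower (6.94% of all genes), with the count of members at an unadjusted p under 0.05 being 1, where 32.7% of all genes had such a p. DESeq2 and limma voom called the same single member, Irf1, with 11.4% and 16.4% of all genes called by them. Over all genes, DESeq2 called 1550 higher and 1360 lower of 25431, and limma voom 1306 higher and 977 lower of 13904. The groups did not overlap for 2 members, Irf1 and Irf9, both higher in aged libraries, where 29.9% of all genes had groups without overlap. The median log2 fold change of the 8 members was 0.08.

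The promoters of 3 members are shown, Irf1 because its transcript rose with age, and Irf2 and Irf8 because, with Irf1, they were the members with a match to a searched motif. The windows come from RefSeq on GRCm38.p6, where all 8 members were found (11 windows, 2 each for Irf1, Irf8 and Irf9), and were searched over 250 bases before to 50 bases after a start site. The motifs, searched on both strands, were GAAANNGAA (interferon-response-type repeat), TTCNNNGAA (STAT-type palindrome) and TGANTCA (AP-1 motif); TTCNNNGAA and TGANTCA read alike on both strands. The 250 bases before the start are printed 5′ to 3′ on the gene's strand, which was the plus strand for the 3 genes, at chr11:53769764-53770013 for Irf1 (the first of 2 windows), chr8:46739495-46739744 for Irf2 and chr8:120736108-120736357 for Irf8 (the first of 2 windows). Capitals mark the matches.
Irf1: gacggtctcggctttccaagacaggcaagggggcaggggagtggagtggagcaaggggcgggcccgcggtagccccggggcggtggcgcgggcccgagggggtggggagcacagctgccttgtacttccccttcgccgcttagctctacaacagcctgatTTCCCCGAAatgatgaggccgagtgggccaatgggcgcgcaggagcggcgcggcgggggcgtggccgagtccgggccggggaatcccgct
Irf2: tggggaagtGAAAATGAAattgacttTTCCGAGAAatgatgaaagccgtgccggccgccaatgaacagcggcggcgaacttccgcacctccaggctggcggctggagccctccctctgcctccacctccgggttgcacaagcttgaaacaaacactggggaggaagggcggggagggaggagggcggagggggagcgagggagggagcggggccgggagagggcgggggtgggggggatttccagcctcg
Irf8: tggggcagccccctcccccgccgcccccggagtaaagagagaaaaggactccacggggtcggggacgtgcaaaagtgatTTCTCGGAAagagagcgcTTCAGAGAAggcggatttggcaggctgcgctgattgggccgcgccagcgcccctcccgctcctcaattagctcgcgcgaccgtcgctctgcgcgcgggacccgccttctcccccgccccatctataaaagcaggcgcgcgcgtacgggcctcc
In the Irf1 window the STAT-type palindrome lay at positions -90 to -82, counted with the start site as 0. In Irf2, the interferon-response-type repeat lay at -241 to -233 and a STAT-type palindrome at -224 to -216. The Irf8 window held a STAT-type palindrome at -171 to -163 and another at -153 to -145. None of the 3 motifs was found in the other windows of Irf1 and Irf8 or in those of Irf3, Irf4, Irf5, Irf7 and Irf9. Of 32851 windows of this length in the table, 8.56% held GAAANNGAA, 8.3% TTCNNNGAA and 7.81% TGANTCA. A match is a stretch of letters, and binding was not measured in these libraries.

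Irf1 was higher in aged than in young libraries, and its counterpart Irf2 did not pass the test. Irf1 (chr11:53770014-53778374, plus strand, GRCm38) read 251, 246 and 333 CPM in the aged libraries (replicates 1 to 3), against 159, 168, 145 and 168 CPM in young replicates 1 to 4. Every aged library lay above every young library. Aged libraries averaged 277 ± 48.9 CPM (SD, n = 3) against 160.1 ± 11.01 CPM (SD, n = 4) for the young. The log2 fold change was 0.79 ± 0.13 (SE), with an edgeR adjusted p of 0.00624 and a 95% interval of 1.41-fold to 2.12-fold. The call held in each of the 7 fits that left 1 library out, with log2 fold changes of 0.64 to 0.87 and adjusted p-values up to 0.0256. It was lost with a block on the replicate numbers, which the labels do not state to pair the samples (log2 fold change 0.80, edgeR adjusted p = 0.0854). With this block and the GC content and length trends removed, it was lost as well (0.80, edgeR adjusted p = 0.0968). Summed neutrophil markers were 5408, 1950 and 750 CPM in aged replicates 1 to 3 and 274 to 964 CPM in young libraries. Of the 10 markers, 5 were called higher, with a median log2 fold change of 2.03 over the 10. Summed platelet markers (5 genes) were 20.2 to 39.5 CPM in aged and 8.2 to 17.3 CPM in young libraries, with 1 of the 4 tested called higher. The part of both marker lists, and of the higher mitochondrial share of the aged libraries, in the Irf1 difference was not tested. Irf2 (chr8:46739732-46847458, plus strand) read 107, 88.3 and 105 CPM in aged and 111, 112, 102 and 105 CPM in young replicates. The groups overlapped, and the means were 100.2 ± 10.3 CPM (SD, n = 3) and 107 ± 4.50 CPM (SD, n = 4). Its log2 fold change was -0.10 ± 0.10 (SE), with a 95% interval of -0.32 to 0.12 and an edgeR adjusted p of 0.514.

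**Figure D1:**
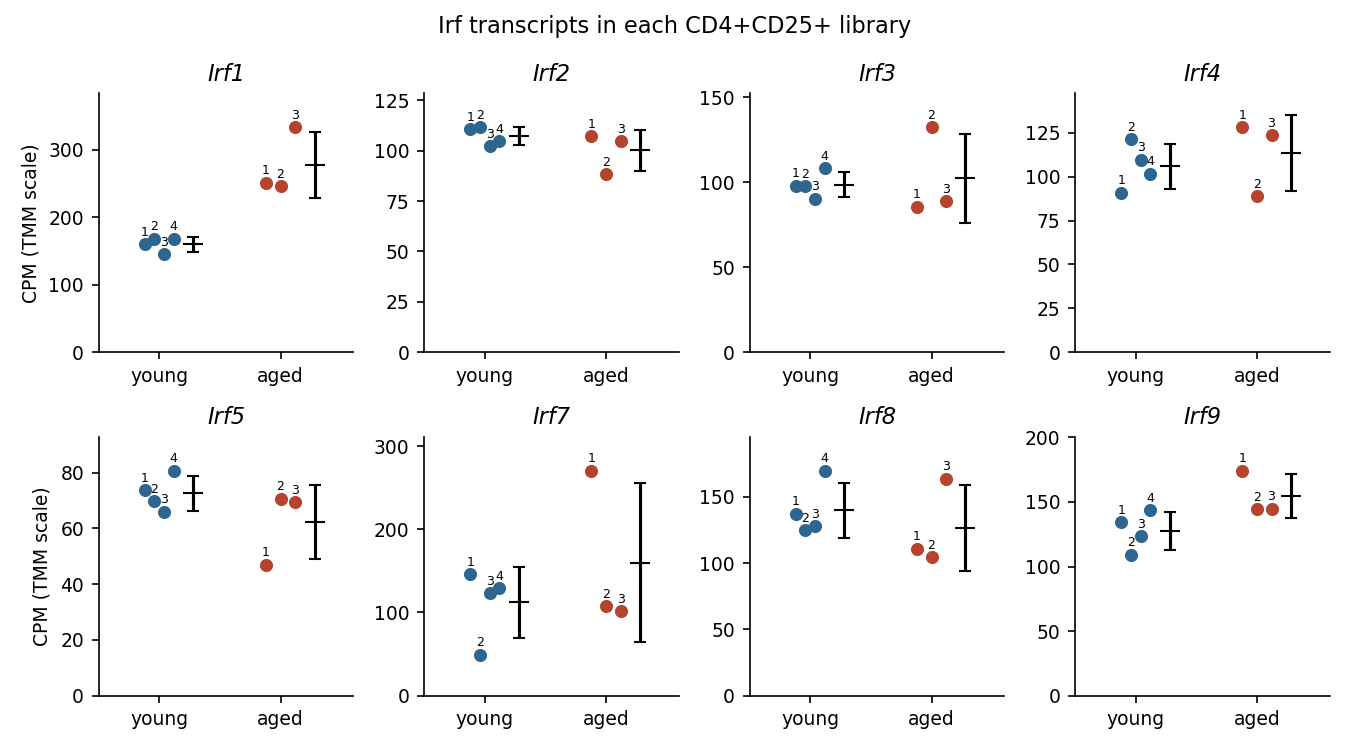
CPM on the TMM scale (vertical axis, linear, from 0) of each Irf gene in every young (blue) and aged (red) library, with replicate numbers beside the points and bars for mean ± SD (n = 4 young, n = 3 aged). The aged points of Irf1 (246 to 333 CPM) lie above all young points (145 to 168 CPM), and the spread of Irf7 comes from aged replicate 1 at 270.3 CPM and young replicate 2 at 49.3 CPM.

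Of the members below nucleic acid sensors, none was called, and Irf7 varied more between libraries than Irf3 and Irf5. Irf7, which is itself induced by interferon (chr7:141262706-141266481, minus strand), stood at 270.3, 108 and 101 CPM in aged and 146, 49.3, 123 and 129 CPM in young replicates. The highest value, in aged replicate 1, and the lowest, in young replicate 2, were far from the rest, and the other 5 libraries lay between 101 and 146 CPM with the groups overlapping. The means were 159.8 ± 95.7 CPM (SD, n = 3) and 112 ± 43.0 CPM (SD, n = 4), with a log2 fold change of 0.51 ± 0.43 (SE), an edgeR adjusted p of 0.453 and a 95% interval of -0.47 to 1.5. It became -0.10 when aged replicate 1 was left out.

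Irf3, which is present before any stimulus and drives interferon-β (chr7:44997648-45002848, plus strand), read 85.6, 132 and 88.8 CPM in aged and 98.0, 97.5, 90.4 and 108 CPM in young replicates. Aged replicate 2 was above all others, and the other 2 aged libraries were below all young ones. The aged mean was 102 ± 26.2 CPM (SD, n = 3), against 98.6 ± 7.39 CPM (SD, n = 4). The log2 fold change was 0.05 ± 0.16 (SE, 95% interval -0.31 to 0.42, edgeR adjusted p = 0.856), and it was -0.18 without aged replicate 2. Irf5, which acts below Toll-like receptors in B cells and myeloid cells (chr6:29526625-29541871, plus strand), read 47.0, 70.6 and 69.3 CPM in aged and 73.7, 69.8, 65.9 and 80.6 CPM in young replicates. Aged replicate 1 was lowest and the other libraries overlapped, with means of 62.3 ± 13.3 CPM (SD, n = 3) at the older age and 72.5 ± 6.27 CPM (SD, n = 4) at the younger. The log2 fold change was -0.22 ± 0.15 (SE, 95% interval -0.56 to 0.13, edgeR adjusted p = 0.354). Of the exon length of Irf5, 14.1% lies over exons of Tnpo3 on the other strand, beside 0% to 3.40% for the other members.

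Irf9 (chr14:55603571-55610030, plus strand) read 174, 144.3 and 145 CPM in aged and 134, 109, 124 and 143.8 CPM in young replicates. The lowest aged value lay just above the highest young one, so the groups did not overlap. The means were 154 ± 17.1 CPM (SD, n = 3) and 128 ± 14.8 CPM (SD, n = 4), and so a log2 fold change of 0.27 ± 0.12 (SE) with a 95% interval of -0.01 to 0.55. The edgeR adjusted p was 0.16 and did not pass. As for Irf7, the highest library was aged replicate 1 and the lowest young replicate 2.

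Irf4, the Treg effector factor (chr13:30749226-30766976, plus strand), read 128, 88.9 and 124 CPM in aged and 90.9, 121, 109.7 and 102 CPM in young replicates. The groups overlapped, with means of 114 ± 21.4 CPM (SD, n = 3) and 106 ± 12.8 CPM (SD, n = 4). The log2 fold change was 0.10 ± 0.15 (SE, 95% interval -0.25 to 0.45, edgeR adjusted p = 0.691), and as a ratio of aged to young its interval ran from 0.844 to 1.36. By flow cytometry, the study reported less IRF-4 protein in aged than in young Tregs without stimulation, and comparable levels after stimulation. That is protein in gated cells, while the values here are RNA of the whole isolate. Irf4 was lowest in aged replicate 2 and young replicate 1, the libraries with the most haemoglobin counts (13.1% and 10.4%), and the part of these transcripts in its level was not tested. Irf8 (chr8:120736358-120756694, plus strand) read 111, 104 and 164 CPM in aged and 137, 125, 128 and 169.8 CPM in young replicates. The groups overlapped around means of 126 ± 32.6 CPM (SD, n = 3) and 140.0 ± 20.6 CPM (SD, n = 4), and the log2 fold change was -0.15 ± 0.18 (SE, 95% interval -0.56 to 0.26, edgeR adjusted p = 0.616).

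**Figure D2:**
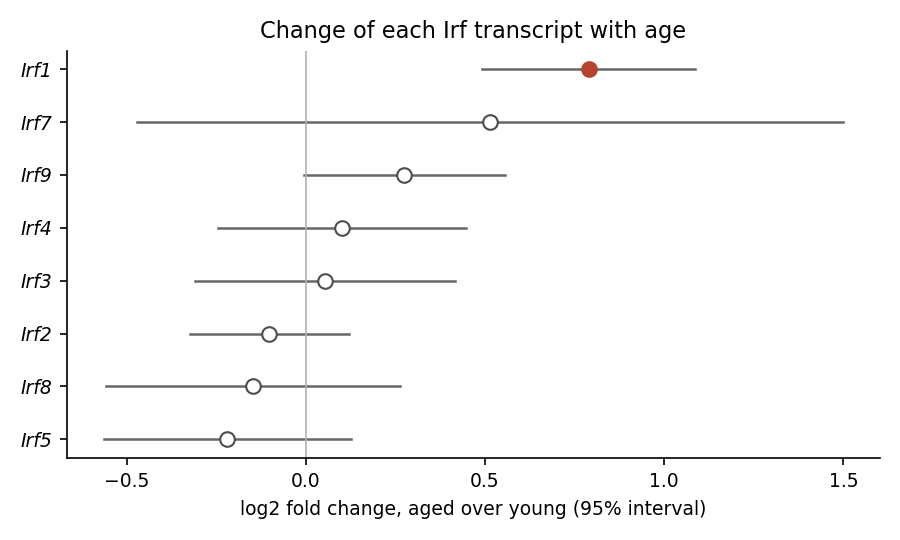
Log2 fold change of aged over young libraries (horizontal axis, points) with its 95% interval (lines) for each Irf gene, with the filled point passing an edgeR adjusted p of 0.05. The interval of Irf1 (0.49 to 1.09) is the only one wholly above 0, and that of Irf7 (-0.47 to 1.5) is the widest.

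Irf8 and Irf5 were read beside transcripts of other cells in the isolate. Summed B cell markers were 1107, 1579 and 2068 CPM in aged and 2039, 1580, 1815 and 2490 CPM in young replicates, and none of the 10 markers was called by edgeR, the lowest adjusted p being 0.0562 for Ms4a1 (log2 fold change -0.65). Irf8 was highest in young replicate 4 and aged replicate 3, the libraries with the highest marker sums, and Irf5 was lowest in aged replicate 1, the library with the lowest sum. Summed monocyte or macrophage markers were 440 to 597 CPM in aged and 546 to 644 CPM in young libraries. Of these 12 genes, 3 were called lower, Csf1r, Adgre1 and Vcam1 (log2 fold changes -1.12, -0.70 and -0.56), and the list median was -0.25. Conventional dendritic cell markers were 44.5 to 65.4 CPM and 60.1 to 78.7 CPM. Of the 8 tested, 1 was called higher, Zbtb46 (0.95), and 2 lower, Clec9a and Cd209a (-1.64 and -3.41), with a list median of -0.88. Plasmacytoid dendritic cell markers were 169.8 to 238 CPM in aged and 194 to 212 CPM in young libraries, with 1 of the 6 tested called higher and 2 lower. The lower ones were Siglech and Ccr9 (log2 fold changes -1.64 and -1.90, edgeR adjusted p = 0.014 and 0.00125). The higher one was Runx2 (1.12, edgeR adjusted p = 0.00496). In bulk RNA, fewer cells of a type and less RNA per cell cannot be told apart. The part of these cells in the Irf5 and Irf8 levels was not tested.

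**Figure D3:**
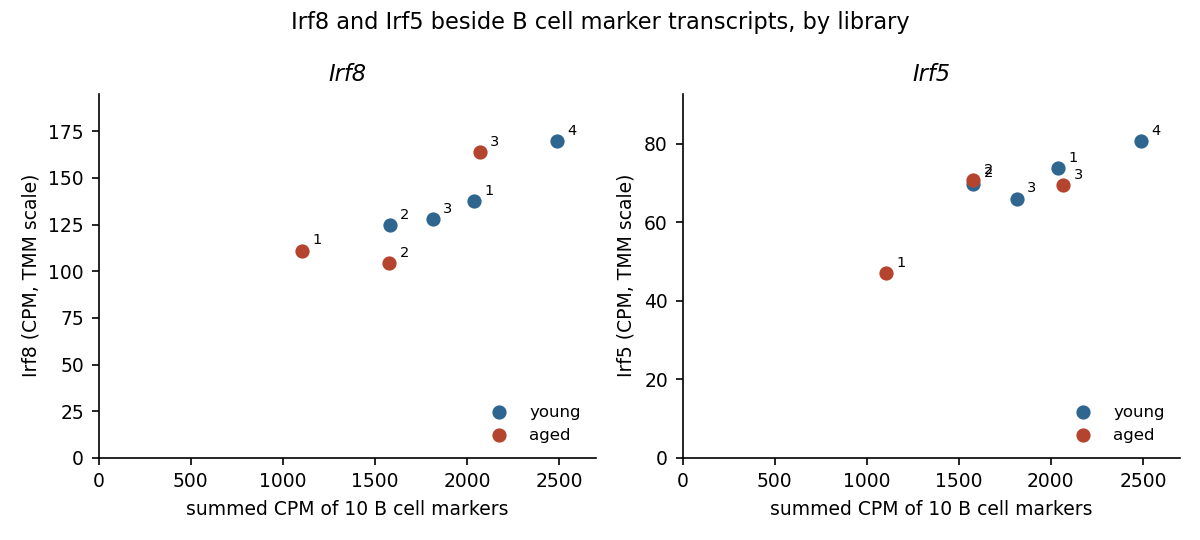
Irf8 (left) and Irf5 (right) in CPM on the TMM scale (vertical axis) against the summed CPM of 10 B cell markers (horizontal axis), 1 point per library with its replicate number, aged in red and young in blue. Aged replicate 1 has the lowest marker sum (1107 CPM) and the lowest Irf5 value (47.0 CPM), and young replicate 4 has the highest marker sum (2490 CPM) and the highest values of both genes.

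Per length, Irf1 was the most abundant member by its mean over the 7 libraries, while in aged replicate 1 Irf7 (71.6 CPM per kilobase) was above Irf1 (63.2). In CPM divided by kilobases of exon, the mean over 7 libraries was 52.8 for Irf1 (36.4 to 83.8), 35.1 for Irf7 (13.0 to 71.6), 29.1 for Irf3 (24.9 to 38.5) and 25.8 for Irf9 (20.3 to 32.3). It was 23.5 for Irf5 (16.2 to 27.8), 22.3 for Irf4 (18.1 to 26.1), 19.0 for Irf8 (14.8 to 24.1) and 14.1 for Irf2 (11.9 to 15.1). The ranges of all neighbours in this order overlapped, and the order of Irf9, Irf4 and Irf5 differed between the ages, with means of 28.7, 23.2 and 21.5 in aged and 23.7, 21.6 and 25.0 in young libraries. With the longest transcript in place of all exons, Irf1 stayed first and Irf4 came last, with 98.3 and 22.9 CPM per kilobase.

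The sensors, adaptors and kinases that act before IRF3, IRF5 and IRF7 were compared next. Of 24 genes, edgeR called 0 (16.7% of all genes were called), and 4 had an unadjusted p under 0.05 (32.7% of all genes). DESeq2 called 1 higher and 3 lower (11.4% of all genes called in either direction), and limma voom called 0 (16.4%). With RLE normalization, with the GC content and length trends removed, or with limma on the deposited normalized values, 1 was called lower. Without aged replicate 1, edgeR called 3 lower (10.2% of all genes in that fit), without aged replicate 2 it called 2 higher (7.58%), and without young replicate 2 it called 1 lower (5.4%). The share of all genes called moved with the libraries as well, from 8.9% without aged replicate 3 to 21.5% without aged replicate 1, and counts of other lists in fits with 1 library left out are read beside the shares of the same fits. The median log2 fold change was -0.06, beside 0.02 over all genes, and it turned to 0.02 without aged replicate 2. Tbk1, the kinase of IRF3 and IRF7, was at 93.2, 76.4 and 74.7 CPM in aged and 73.4, 66.1, 66.1 and 71.5 CPM in young replicates, without overlap, and its log2 fold change of 0.23 ± 0.10 (SE) had an edgeR adjusted p of 0.157 and became 0.12 without aged replicate 1. Tlr7, the single-stranded RNA sensor, had a log2 fold change of -0.36 ± 0.20 (SE) and Tlr9, the DNA sensor, of -0.67 ± 0.23 (SE), with edgeR adjusted p-values of 0.252 and 0.0818. Tlr7 was at -0.70 and called lower without aged replicate 1 (edgeR adjusted p = 0.00498), and at -0.20 without aged replicate 2. Tlr9 was called lower by edgeR without young replicate 2 (adjusted p = 0.0325), and by DESeq2.

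Among interferons, their receptors and signalling proteins, 10 of 14 genes were tested, 0 were called higher and 2 lower by edgeR (9.8% and 6.94% of all genes), and the median log2 fold change was -0.01. At an unadjusted p under 0.05, 6 genes passed (32.7% of all genes). DESeq2, which tested 11 of the genes, Ifnlr1 included, called 3 higher and 3 lower (11.4% of all genes called in either direction). With limma voom 0 were higher and 3 lower (16.4% of all genes). With 1 library left out, edgeR called 0 to 2 higher (2 without young replicate 2, 1 without aged replicate 2, beside 9.11% and 7.58% of all genes) and 1 to 3 lower (3 without aged replicate 1, beside 10.2% of all genes, and 1 in the other 6 fits, beside 3.16% to 5.4%). Ifna2, Ifna4 and Ifnb1, which encode type I interferons, had 0 counts in all 7 libraries, and Ifnlr1 was below the filter. Stat2, a partner of IRF9, did not overlap between the ages (88.1 to 145 CPM in aged, 61.2 to 83.7 CPM in young), with a log2 fold change of 0.57 ± 0.18 (SE) and an edgeR adjusted p of 0.0681. It was called higher by DESeq2, by edgeR without aged replicate 2 (adjusted p = 0.0486), and by edgeR with the GC content and length trends removed. It was not called in the other 6 fits with 1 library left out or in the other 11 alternatives, and was at 0.32 without aged replicate 1. Ifngr2, the signalling chain of the interferon-γ receptor, fell, from 46.0 to 49.1 CPM in young to 25.7 to 27.8 CPM in aged libraries (log2 fold change -0.83 ± 0.09, SE, edgeR adjusted p = 0.00117). Ifngr1, the ligand-binding chain of that receptor, read 585, 345 and 411 CPM in aged and 243, 407, 220.1 and 199 CPM in young replicates. These groups overlapped, and the log2 fold change of 0.74 ± 0.27 (SE) had an edgeR adjusted p of 0.099. DESeq2 called it higher, and so did edgeR without young replicate 2 (adjusted p = 0.0162). Ifnar1, a chain of the type I receptor, fell by 0.41 on the log2 scale (edgeR adjusted p = 0.0402), and this call was lost without any 1 library other than aged replicate 1 (adjusted p up to 0.121). Ifng itself was low, at 4.89 to 5.80 CPM in aged and 2.08 to 5.26 CPM in young libraries, with a log2 fold change of 0.69 ± 0.32 (SE) and an edgeR adjusted p of 0.179 (1.01 and 0.046 without young replicate 2, the 1 alternative that called it). The part of the neutrophil markers (5 of 10 called higher), of the platelet markers (1 of the 4 tested called higher, sums without overlap) and of the mitochondrial share in the values of these genes was not tested.

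Genes known to respond to interferon-γ, many of them targets of IRF1, were higher in aged libraries for 12 of 18 members. By edgeR, 12 rose and 0 fell, where 9.8% and 6.94% of all genes did, with a median log2 fold change of 0.65. At an unadjusted p under 0.05, 13 genes passed (32.7% of all genes in either direction), all of them higher. DESeq2 and limma voom each gave 12 higher and 0 lower, beside 11.4% and 16.4% of all genes called in either direction. The list was chosen with results of these libraries known, so it is not independent evidence of a direction. Cxcl10, a chemokine, was at 39.0, 9.16 and 18.0 CPM in aged and 3.00 to 4.37 CPM in young libraries (log2 fold change 2.49 ± 0.43, SE, edgeR adjusted p = 0.00754, and 1.78 without aged replicate 1). Iigp1, an immunity-related GTPase, was at 123 to 139 CPM in aged and 34.6 to 45.6 CPM in young libraries (log2 fold change 1.75 ± 0.12, SE, edgeR adjusted p = 0.000235). The guanylate-binding protein genes Gbp4 and Gbp3 rose by log2 fold changes of 1.03 and 1.01, with edgeR adjusted p-values of 0.00317 and 0.00616. Tap1 and Psmb9, for peptide supply to MHC class I, had log2 fold changes of 0.68 and 0.82, and Nlrc5, an activator of those genes, of 0.80, with edgeR adjusted p-values of 0.00866, 0.00405 and 0.0103. Ciita, the activator of MHC class II genes, had a value of -0.40 ± 0.27 (SE, edgeR adjusted p = 0.345), which ran from -0.71 without aged replicate 3 to -0.20 without aged replicate 2. The mean log2 CPM of the list, centred on the 7 libraries, was 0.54, 0.16 and 0.46 in aged and -0.27, -0.17, -0.39 and -0.34 in young replicates, and the groups did not overlap. In fits with 1 library left out, 10 to 12 of the 18 were called, where 5.71% to 11.3% of all genes rose. Aged replicate 1 was the highest library for 10 of the 18 genes (55.6% beside 16.4% of all genes tested). Of the neutrophil markers, 5 of 10 were called higher in aged libraries, with sums that overlapped between the ages. The log2 fold changes of all 10 were positive, at 1.69 to 2.43 with a median of 2.03. Of the platelet markers, 1 of the 4 tested was called higher, with sums that did not overlap. The mitochondrial share was also higher in aged libraries, and the part of all these transcripts in the values of this list was not tested.

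**Figure D4:**
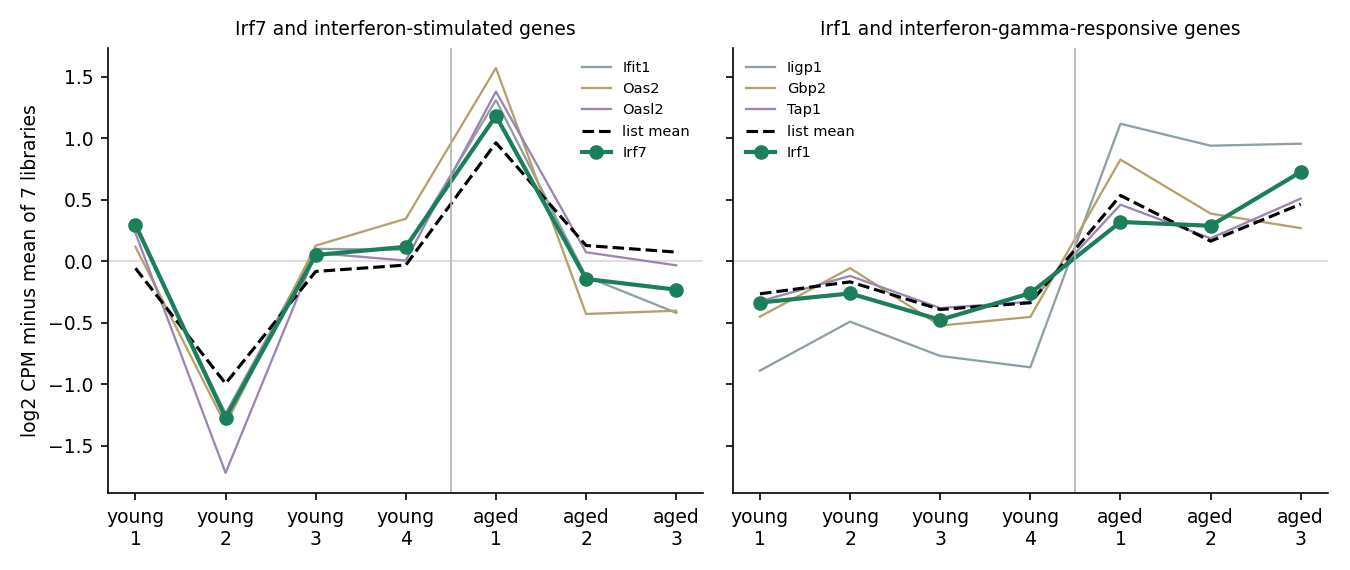
Log2 CPM centred on the mean of the 7 libraries (vertical axis) by library (horizontal axis), for Irf7 with Ifit1, Oas2, Oasl2 and the mean of 25 interferon-stimulated genes (left, dashed), and for Irf1 with Iigp1, Gbp2, Tap1 and the mean of 18 interferon-gamma-responsive genes (right, dashed), means that include the other genes drawn except Irf7 and Irf1. The left curves peak in aged replicate 1 and dip in young replicate 2, with list means of 0.96 and -0.995, and the right curves lie above 0 in aged and below 0 in young libraries.

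Of 25 genes of the type I interferon response, 3 rose by edgeR and 0 fell, a share of rises close to the 9.8% of all genes, with a median log2 fold change of 0.64 that was 0.12 without aged replicate 1. At an unadjusted p under 0.05, 6 genes passed (32.7% of all genes), all of them higher. DESeq2 called 4 and limma voom 2, none lower, beside 11.4% and 16.4% of all genes called in either direction. Zbp1 and Dhx58 are also in the list of sensors, and Bst2 is also a marker of plasmacytoid dendritic cells. Ifi44 was at 30.8, 6.14 and 8.14 CPM in aged and 0.612 to 1.19 CPM in young libraries (log2 fold change 4.00 ± 0.60, SE, edgeR adjusted p = 0.00435, and 2.92 without aged replicate 1). Mx1, a gene of the interferon-induced dynamin-like GTPases that carries a deletion in C57BL/6 mice, and Oas1a, of the 2′-5′ oligoadenylate synthetase family, rose by log2 fold changes of 2.05 ± 0.51 and 1.88 ± 0.24 (SE), with edgeR adjusted p-values of 0.0289 and 0.00241. Mx1 was at 86.8, 18.6 and 28.4 CPM in aged and 6.03 to 14.7 CPM in young libraries, and without aged replicate 1, the highest, its log2 fold change was 1.12. The Mx1 call was lost with limma voom and without any 1 young library (adjusted p up to 0.0763), and 7 genes of the list were called without aged replicate 2 (7.58% of all genes rose in that fit). Aged replicate 1 was the highest library for 20 of the 25 genes (80% beside 16.4% of all genes tested) and young replicate 2 the lowest for 16 (64% beside 13.8%). The centred list mean was 0.96, 0.13 and 0.07 in aged and -0.06, -0.995, -0.08 and -0.03 in young replicates. Some genes of the list went otherwise: Isg20 was at 129, 925 and 327 CPM in aged and 474, 71.5, 286 and 275 CPM in young replicates, and Rsad2 at 144, 1036 and 413 CPM and 894, 56.6, 522 and 629 CPM. Both were highest in aged replicate 2 and lowest in young replicate 2. Haemoglobin took 1.27%, 13.1% and 7.6% of counts in aged and 10.4%, 1.24%, 6.15% and 5.91% in young replicates, and its part in these values was not tested. Summed neutrophil markers were highest in aged replicate 1, as Irf7 was, and lowest in young replicate 2. Of the 10 markers, 5 were called higher in aged libraries, with a median log2 fold change of 2.03 over the 10. Summed platelet markers did not overlap between the ages, with 1 of the 4 tested called higher, and the mitochondrial share was higher in aged libraries. The part of these transcripts in the values of Irf7 and of the list was not tested.

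The profile over the 7 libraries was compared with that of 9425 genes of a mean log2 CPM of 3 or more, by the root mean square difference of centred log2 CPM. Irf7 was nearest to Ifit1 (0.0894), Oasl2 (0.218) and Oas2 (0.22), all 3 interferon-stimulated genes of the list above. Irf1 was nearest to Zfp956, Asb8 and Slc33a1 (0.0725 to 0.0827), and Irf9 to Pidd1, Slc2a1 and Nisch (0.0634 to 0.0705). Irf8 was nearest to Dennd3, Lyn and N4bp3 (0.0863 to 0.0947), and Irf4 to Pmm1, Cdkal1 and Hnrnpa1 (0.057 to 0.0638). Irf5 had Atp6v0d1, Exosc5 and Lipe (0.0741 to 0.0846), Irf3 had 9430015G10Rik, Cacnb1 and Sirt7 (0.0507 to 0.0556), and Irf2 had Slc30a6, Zfp120 and Cwc22 (0.0253 to 0.0316). A small distance is easier to reach for a gene that varied little, so distances are not compared between members.

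DNA-binding partners of IRFs changed in both directions. Of 14 genes, 13 were tested, 2 rose and 5 fell (9.8% and 6.94% of all genes), with a median log2 fold change of -0.37. With 1 library left out, 1 to 2 rose and 2 to 5 fell, with 2 falls without aged replicate 2, aged replicate 3, young replicate 1 or young replicate 4, and 1 rise without aged replicate 3, young replicate 3 or young replicate 4. Falls over all genes were also below 6.94% in the fits with 2 falls, at 4.6%, 3.16%, 3.41% and 3.31% in that order of libraries. The list count did not always move with this share, since the fit without young replicate 3 had 4 falls in the list beside 3.55% of all genes. Batf, which binds with IRF4 and JUN proteins, was at 79.8, 94.4 and 105 CPM in aged and 42.3, 58.5, 44.0 and 41.9 CPM in young replicates (log2 fold change 1.00 ± 0.15, SE, edgeR adjusted p = 0.00397). Jun was at 171, 117 and 118 CPM in aged and 495, 566, 177 and 464 CPM in young replicates. Young replicate 3 lay close to the aged libraries, and the log2 fold change was -1.65 ± 0.37 (SE, edgeR adjusted p = 0.0199). The Jun call was lost without aged replicate 2, aged replicate 3, young replicate 1 or young replicate 4 (adjusted p up to 0.0793). Spib, a PU.1-like partner of IRF4 and IRF8 in B cells, was at 56.5, 99.2 and 108 CPM in aged and 185, 159, 221 and 259 CPM in young replicates (log2 fold change -1.23 ± 0.25, SE, edgeR adjusted p = 0.0137). Tcf3, which encodes E proteins, fell by 0.77 on the log2 scale (edgeR adjusted p = 0.00158). The other called members were Stat3 (log2 fold change 0.49), Ikzf1 (-0.54) and Cbfb (-0.36), whose calls held in 4, 2 and 1 of the 7 fits with 1 library left out and were lost in each case without aged replicate 3, young replicate 3 or young replicate 4 (adjusted p up to 0.102). Spib was lowest in aged replicate 1, as the B cell marker sum was, and the part of B cells in it was not tested. Neutrophil markers (5 of 10 called higher, median log2 fold change 2.03, sums overlapping between the ages) and platelet markers (1 of the 4 tested called higher, sums without overlap) stand beside these values too. So does the higher mitochondrial share of the aged libraries, and the part of all these transcripts in the values was not tested.

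Of 14 regulators of IRF proteins, 1 rose and 3 fell (9.8% and 6.94% of all genes), with a median log2 fold change of -0.15. Falls were 2 without aged replicate 3, young replicate 1 or young replicate 4 (3.16%, 3.41% and 3.31% of all genes) and 3 in the other fits with 1 library left out (3.55% to 10.2%). Irf2bp1 and Irf2bpl encode proteins of the IRF2-binding family. Irf2bp1 was at 17.7, 21.6 and 18.7 CPM in aged and 30.9, 33.5, 36.6 and 35.6 CPM in young replicates (log2 fold change -0.82 ± 0.12, SE, edgeR adjusted p = 0.0035). Irf2bpl fell by 0.45 on the log2 scale (edgeR adjusted p = 0.015), a call lost without aged replicate 3, young replicate 1 or young replicate 4 (adjusted p up to 0.0567). Irf2bp2, of the same family, had a log2 fold change of 0.25 (edgeR adjusted p = 0.0744). Def6, which binds IRF4 and limits its activity, was at 81.2 to 86.2 CPM in aged and 121 to 146 CPM in young libraries (log2 fold change -0.67 ± 0.10, SE, edgeR adjusted p = 0.00337), while its relative Swap70 had a log2 fold change of -0.24 (edgeR adjusted p = 0.24). Trim21, a ubiquitin ligase of IRF proteins, rose by a log2 fold change of 0.49 (edgeR adjusted p = 0.0227), a call lost without aged replicate 3, young replicate 1, young replicate 3 or young replicate 4 (adjusted p up to 0.0681). The part of the neutrophil markers (5 of 10 called higher), of the platelet markers (1 of the 4 tested called higher, sums without overlap) and of the mitochondrial share (at least 5.08% in aged, at most 3.23% in young) in the values of the regulators was not tested.

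Effector Treg genes linked to IRF4 were tested beside Irf4. Of 15 genes, 7 rose and 0 fell by edgeR, where 9.8% and 6.94% of all genes did, with a median log2 fold change of 0.86, while Irf4 was at 0.10. At an unadjusted p under 0.05, 10 genes passed (32.7% of all genes in either direction), all of them higher. DESeq2 called 8 and limma voom 7, none lower, beside 11.4% and 16.4% of all genes called in either direction. This list, too, was chosen with results of these libraries known. Cxcr3, a chemokine receptor, was at 103 to 114 CPM in aged and 27.2 to 46.7 CPM in young libraries (log2 fold change 1.64 ± 0.18, SE, edgeR adjusted p = 0.00125). Tigit, an inhibitory receptor, was at 140.4 to 185 CPM in aged and 44.8 to 74.8 CPM in young libraries (log2 fold change 1.58 ± 0.19, SE, edgeR adjusted p = 0.00162). Maf rose by a log2 fold change of 1.12 (edgeR adjusted p = 0.00131). Prdm1, which encodes BLIMP1, was at 38.0 to 58.1 CPM in aged and 15.2 to 36.2 CPM in young libraries (log2 fold change 1.2 ± 0.31, SE, edgeR adjusted p = 0.0326), a call kept only without aged replicate 2 or young replicate 2 (adjusted p up to 0.0972 in the other 5 fits). Icos, Tnfrsf9 and Il1rl1 were the other called genes (log2 fold changes of 0.92, 0.81 and 0.65). Their calls held in 3, 3 and 1 of the 7 fits with 1 library left out, and were lost in each case without young replicate 1, young replicate 3 or young replicate 4 (adjusted p up to 0.121). Ctla4 (0.86), Ccr8 (1.06) and Il10 (1.61) did not pass, at edgeR adjusted p-values of 0.103, 0.0508 and 0.0718. All 3 were called higher without young replicate 2, Il10 also without aged replicate 2 and with no low-count filter, and Ccr8 in 7 of the other 13 alternatives, DESeq2 and limma voom among them. The log2 fold change of Il10 ran from 0.97 without aged replicate 3 to 2.01. Across the fits with 1 library left out, 3 to 9 of the 15 genes were called, with 3 without young replicate 1, young replicate 3 or young replicate 4 and 9 without young replicate 2. Of all genes, 6.17%, 5.73% and 5.71% rose in the fits without young replicate 1, 3 or 4, and 9.11% without young replicate 2. Of the neutrophil markers, 5 of 10 were called higher, with a median log2 fold change of 2.03 over the 10 and sums that overlapped between the ages. Of the platelet markers, 1 of the 4 tested was called higher, and the sums were 20.2 to 39.5 CPM in aged and 8.2 to 17.3 CPM in young libraries. The mitochondrial share was higher in aged libraries (at least 5.08% in aged, at most 3.23% in young). The part of these transcripts in the values of this list was not tested. Summed Treg markers overlapped between the ages (2870 to 3393 CPM in aged, 2180 to 3576 CPM in young), with young replicate 2 highest. Of the 8 markers, 1, Lrrc32, was called, lower in aged libraries.

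**Figure D5:**
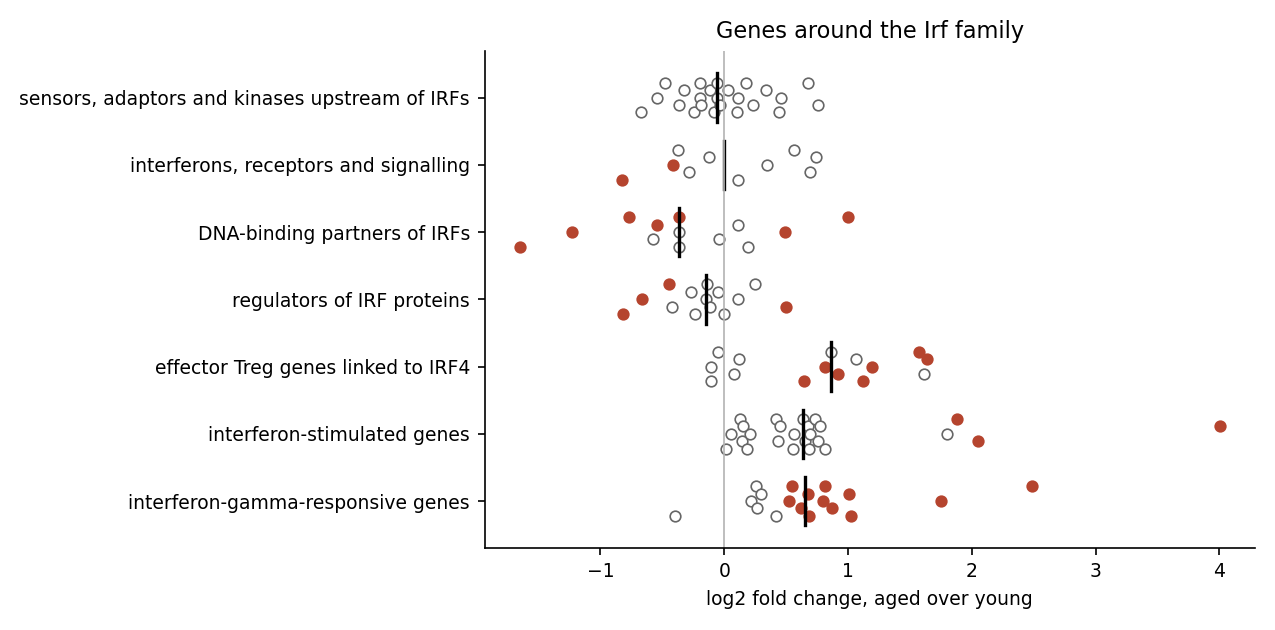
Log2 fold change of aged over young libraries (horizontal axis) of each tested gene in 7 lists of genes around the Irf family (rows), with filled points passing an edgeR adjusted p of 0.05 and black bars at the list medians. Filled points lie only to the right of 0 for effector Treg, interferon-stimulated and interferon-gamma-responsive genes, and on both sides for partners and regulators.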

How the data were processed

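The authors deposited raw read counts per Ensembl gene for each of the 7 libraries, and 1 table in which their signal values were checked to be the count over 1 size factor per library. That table also holds the authors' own fold changes and p-values, which were not used. Per the submitters' processing notes the genome build was mm10; the aligner is not given in the sources used here. By the naming of the tables, reads were counted in union mode without strand, so that reads over exons of overlapping genes go to neither. Reads on no single gene (13.1% to 20.9%) were left out. Gene coordinates and exon lengths were read from the GENCODE M21 annotation (GRCm38) by gene identifier.

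Counts were tested by the quasi-likelihood method of edgeR 4.0.16 (R 4.3.3) after TMM scaling and filterByExpr by group, without covariates, with Benjamini-Hochberg adjustment over 13904 genes and a threshold of 0.05; the study's methods name limma, run as an alternative (limma 3.58.1) with DESeq2 1.42.0. The standard error is the log2 fold change divided by the square root of F, and intervals are 95%. The procedure was tested on simulated data. No molecular identifiers were used, so a limit of 3 counts covers counting error only. The 8 Irf genes are all named, from each list the called genes with the 4 largest changes, and others where their role stands beside a member. The members and lists were chosen with earlier results of these data known. Alternatives changed the test, normalization, low-count filter, genes in the library size, replicate block, GC content and length, depth, and each library in turn. A listed gene is not reported here and was left out of the list counts.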

Additional observations from a re-analysis of the deposited data

Results flagged for a closer look

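Dixon's criterion was applied to the Irf genes and to the listed genes that were called or stand beside a member, and the other listed genes were not tested this way. For 4 of these genes, a single young library stood apart from the other 3. Ifnar1 was at 179.9 CPM in young replicate 1 against 164 to 166 CPM in the others. In young replicate 2, Batf was at 58.5 CPM (others 41.9 to 44.0 CPM), Tigit at 74.8 CPM (others 44.8 to 49.5 CPM) and Gbp2 at 118 CPM (others 85.6 to 90.0 CPM). Summed markers stood apart in the same library, with 3460 CPM for T cells (others 2689 to 2798 CPM) and 1977 CPM for plasma cells (others 309 to 487 CPM). The mean centred log2 CPM of the interferon-stimulated genes was -0.995 in young replicate 2, against -0.08 to -0.03 in the other young libraries. Of 80 groups tested, chance alone marks about 1 in 20. No young value of an Irf gene was marked, and groups of 3, as the aged libraries are, were not tested this way.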

How the results depend on the processing

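Irf1 kept its direction in all 20 alternative fits and its call in 18, and Irf2, Irf3, Irf4, Irf5, Irf7, Irf8 and Irf9 were called in none. The labels do not state that the replicate numbers pair the samples. Same-numbered aged and young libraries deviated with correlations of -0.09, -0.29 and -0.14 over genes, and no library correlated best with its own number. These correlations also carry differences in cell content between libraries, so they cannot exclude a preparation shared by number. With the replicate block, 0 Irf genes were called, Irf1 had a log2 fold change of 0.80 (adjusted p = 0.0854), and 292 genes were called in all (202 higher, 90 lower). With the replicate block and the GC content and length trends removed, 0 Irf genes were called, Irf1 was at 0.80 (adjusted p = 0.0968), Irf8 turned to 0.034, and 281 genes were called (203 higher, 78 lower). Requiring also a log2 change of 1 or more in size, which Irf1 does not reach, left 0 Irf genes and 1016 genes in all (757 higher, 259 lower). With library size only, Irf3 was at -0.035, and the median of all genes was -0.05; its share of higher calls was 52.3%, beside 58.5% with TMM. Leaving out 1 library at a time gave 1237 to 3058 genes called, 783 to 1603 higher and 448 to 1455 lower, with 1 Irf gene, Irf1, called each time; the low counts came without aged replicate 3, young replicate 1, young replicate 3 or young replicate 4. Without aged replicate 1, Irf7 was at -0.10, Ifit1 at -0.18 and Oas2 at -0.36, and without aged replicate 2, Irf3 was at -0.18. Over these fits the log2 fold change ran from -0.10 to 0.76 for Irf7, from -0.18 to 0.85 for Ifit1, from -0.36 to 0.96 for Oas2 and from -0.18 to 0.16 for Irf3. It ran from -0.38 (without aged replicate 3) to -0.03 (without aged replicate 2) for Irf8, from -0.32 (without aged replicate 2) to -0.06 (without aged replicate 1) for Irf5, from 0.000527 (without aged replicate 1) to 0.25 (without aged replicate 2) for Irf4, from -0.16 (without aged replicate 1) to -0.02 (without aged replicate 2) for Irf2, and from 0.18 (without aged replicate 1) to 0.34 (without young replicate 4) for Irf9. With the replicate block, which called 292 of all 13904 genes tested, 1 of 18 interferon-gamma-responsive genes, 2 of 15 effector Treg genes and 1 of 10 interferon, receptor and signalling genes were called. In the same fit, 0 of 25 interferon-stimulated genes, 13 partners, 14 regulators and 24 sensors, adaptors and kinases were called. Of the called genes named from these lists, Ifngr2, Iigp1, Cxcr3 and Tigit were called with the block, and Maf was too once the GC content and length trends were removed. Calls were also lost with library size only (Stat3, Ikzf1, Cbfb, Trim21, Il1rl1), with no low-count filter (Cbfb), with GC content and length trends removed (Ifnar1), with limma voom (Mx1, Il1rl1), and with limma-trend, limma on the deposited normalized values or RLE normalization (Il1rl1). Of the 18 interferon-gamma-responsive genes, 10 were called with library size only, beside 12 in the main fit. The cause of these shifts was not tested. With 3 and 4 libraries, the intervals of the members other than Irf1 all include 0.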
